A study of Mus musculus with 18 samples.

Results

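Platelet-derived growth factors (PDGFs) carry signals between the epithelium, vessels and mesenchyme of the skin, and the genes of the family were followed here in 2 cell populations of the mouse. They are the 4 ligand genes Pdgfa, Pdgfb, Pdgfc and Pdgfd and the 2 receptor genes Pdgfra and Pdgfrb, chosen by name from the 52958 gene symbols of the dermal papilla table and the 27933 of the hair follicle stem cell table. All 6 passed the filter on low counts in both tables, which left 23463 and 15231 genes to test.

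The ligands act as disulphide-linked dimers. PDGF-A and PDGF-B are cut inside the cell by furin-like convertases, whereas PDGF-C and PDGF-D carry a CUB domain that proteases such as tissue plasminogen activator remove outside it. PDGFRα binds the A, B and C chains, and PDGFRβ binds B and D. Both are receptor tyrosine kinases of class III that signal through Src family kinases, PI3 kinase, PLCγ and the Ras pathway. In mouse skin PDGF-A made by the follicle epithelium reaches PDGFRα on dermal fibroblasts, dermal papilla cells and adipocyte precursors, while PDGF-B from endothelium recruits PDGFRβ-bearing pericytes.

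RNA was sequenced from cells of female mice purified by flow cytometry, 2 libraries per group. Dermal papilla cells (DP), the mesenchymal cluster under the follicle that signals to its epithelium, came from C57BL/6 mice that were adrenalectomised (ADX) or sham-operated (Sham), and from 129/C57BL/6 mice that carried Pdgfra-CreER and floxed GR alleles (GR KO) or were wild type (Control). Hair follicle stem cells (HFSC), the epithelial cells that regrow the follicle, came from the same kinds of group, plus adrenalectomised C57BL/6 mice fed corticosterone (ADX+CORT). GR KO and Control mice both received tamoxifen intraperitoneally for 6 days. GR is the glucocorticoid receptor, encoded by Nr3c1, and adrenalectomy removes the main source of its ligand corticosterone. Pdgfra, a gene described here, therefore also drives the recombinase, so GR is deleted only in cells in which that driver is active, and the labels give Control mice no CreER. Age and the markers of the sort are not given in the sources used here, nor is it said that the 2 libraries of a group came from separate animals, so p-values measure only the spread between these libraries.

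A DP library held 6194705 to 13941962 counts in total, and an HFSC library 14067139 to 33014976. The deletion was visible in DP, where Nr3c1 was at 137 and 111 CPM (counts per 1000000 of the scaled library size) in GR KO, against 671 and 978 CPM in Control (log2 fold change -2.73, SE 0.38, edgeR adjusted p = 0.0212). The glucocorticoid targets Fkbp5, Tsc22d3 and Per1 fell there too (log2 fold changes -2.77, -2.74 and -1.75, edgeR adjusted p = 0.0373, 0.0212 and 0.0312), whereas in ADX DP their values of -3.00, -1.51 and -0.83 missed the threshold (adjusted p = 0.139, 0.23 and 0.32). All 15 dermal papilla markers were detected in each DP group, with summed levels of 3781 to 7435 CPM, but dermal fibroblast markers summed to more in every DP library, 15660 to 76460 CPM. In HFSC the 12 stem cell markers summed to 24120 to 57980 CPM and the dermal papilla list to 151.5 to 400.7 CPM. Immune markers in HFSC stood at 2221 to 2694 CPM in GR KO and Control libraries and at 48.07 to 155 CPM in the ADX, ADX+CORT and Sham libraries.

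Pdgfra had the highest level of the family in DP and Pdgfa in HFSC. To compare genes, CPM was divided by length in kilobases (RPKM), within 1 cell type only because the populations were counted in different ways. In DP this was the transcript length weighted by estimated counts, and in HFSC the length of all exons of the gene. In DP, Pdgfra had a median of 65.8 RPKM over the 8 libraries (lowest 23.92, highest 204.8) and lay above Pdgfrb in 8 of 8. Pdgfrb followed with a median of 26.35 RPKM (15.8 to 94.93) and lay above Pdgfa in 6 of 8. Next came Pdgfa at 15.66 RPKM (2.885 to 52.27) and Pdgfc at 13.29 RPKM (4.381 to 31.6), whose order held in only 4 of 8 libraries. Pdgfd at 2.658 RPKM and Pdgfb at 1.929 RPKM stood last, also in no fixed order, with Pdgfd above Pdgfb in 5 of 8 libraries. Of the summed RPKM of both receptors, Pdgfra held 52.65% to 82.84%.

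In HFSC the order was steeper. Pdgfa had a median of 68.32 RPKM (48.63 to 98.65 over 10 libraries), at percentile 95.1 per length among the genes with a count in HFSC, and held 83.86% to 94.2% of the summed RPKM of the 4 ligands. Pdgfb followed at 6.111 RPKM, below Pdgfa in 10 of 10 libraries. Pdgfc stood at 1.704 RPKM and Pdgfd at 0.5866 RPKM. The receptors were at the floor of detection, with medians of 0.07042 RPKM for Pdgfra and 0.05205 RPKM for Pdgfrb. Pdgfra stood above Pdgfrb in 3 of 10 libraries. This order depends on the exon lengths used, 10024 bases for Pdgfra and 5478 bases for Pdgfrb.

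Across all tests the edgeR quasi-likelihood fit called none of the 6 genes at an adjusted p of 0.05. In ADX against Sham DP it called 0 of 6, where 0.017% of all genes tested were called. In GR KO against Control DP it again called 0 of 6, with 1.54% of all genes called. At an unadjusted p under 0.05 there was 1 of the 6 in the first comparison, with 11.7% of all genes, and 3 in the second, with 15.2%. DESeq2 called Pdgfa after ADX, with 1.09% of all genes, and Pdgfd in GR KO, with 3.19%. Its shares here and below are of the 43030 DP or 19619 HFSC genes that had a DESeq2 p-value. These genes had not passed the filter on low counts used for edgeR, so the shares of the 2 tools are not comparable. Values of both libraries of one group lay wholly above or below those of the other for 4 of 6 genes in ADX DP and for 4 of 6 in GR KO DP, beside 43.3% and 51.6% of all genes, so this separation is common in groups of 2. The fold changes below are given with standard errors and 95% intervals for that reason, and a change that missed the threshold is not shown to be absent.

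**Figure D1:**
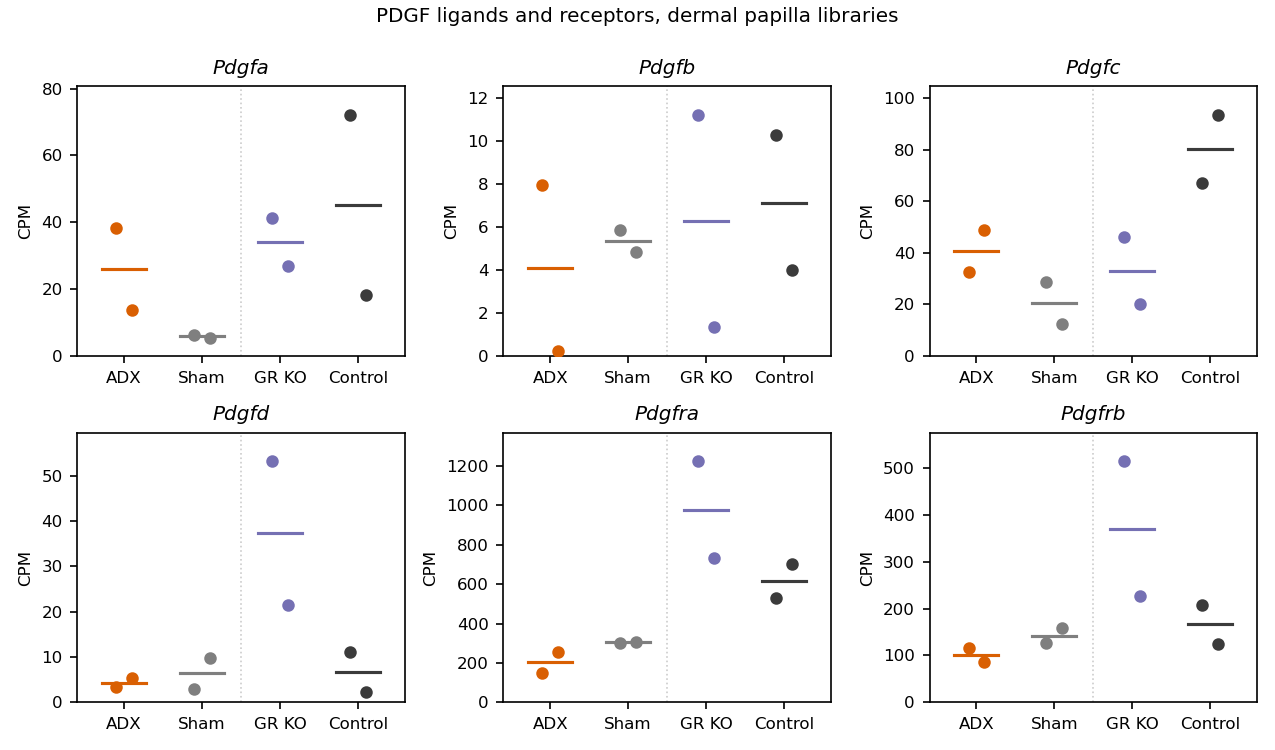
Levels of the 4 ligand and 2 receptor genes in dermal papilla cells in CPM on linear axes from 0, 1 point per library and a bar at the mean of the 2 libraries of a group. Pdgfra and Pdgfrb lie lower in ADX than in Sham and higher in GR KO than in Control, Pdgfa and Pdgfc lie higher in ADX than in Sham, and Pdgfd is highest in GR KO.

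Pdgfra encodes the receptor for the A, B and C chains and is the gene most often used to mark dermal mesenchyme. It lies on chromosome 5 at 75152292 to 75198215 on the plus strand of GRCm38. Its level was 151 and 255 CPM in ADX DP libraries, against 301 and 309 CPM in Sham DP libraries. Both ADX libraries were lower than both Sham libraries, with a log2 fold change of -0.59 (SE 0.35, 95% interval -1.36 to 0.19, edgeR adjusted p = 0.549). In GR KO DP libraries Pdgfra was at 1223 and 734 CPM, against 530 and 705 CPM in Control DP libraries. Again the groups did not overlap, though the second GR KO library and the second Control library lay close together. This was a log2 fold change of 0.66 (SE 0.35, interval -0.11 to 1.44, edgeR adjusted p = 0.409). It was 0.26 without the first GR KO library, 0.33 without the first Control library and 1.0 without the second GR KO library.

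Pdgfrb, the PDGF-B and PDGF-D receptor known from pericytes and fibroblasts, had fold changes of the same signs. It had 116 and 85.4 CPM in ADX DP, against 126 and 159 CPM in Sham DP. The log2 fold change was -0.50 (SE 0.41, interval -1.41 to 0.41, edgeR adjusted p = 0.659). GR KO DP libraries had 513 and 226 CPM, against 208.1 and 124 CPM in Control DP. Here the first GR KO library was the high one, and the second exceeded the first Control library by little. The log2 fold change was 1.15 (SE 0.41, interval 0.24 to 2.07, edgeR adjusted p = 0.209), and it was 0.44 without the first GR KO library and 0.65 without the second Control library.

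Levels of both receptors differed in the same direction as the dermal fibroblast markers. The 12 fibroblast genes, among them the collagens Col1a1 and Col3a1, summed to 20460 and 21680 CPM in the ADX DP libraries, against 28820 and 36080 CPM in Sham, and 12 of 12 had a log2 fold change below 0. In GR KO they summed to 66450 and 76460 CPM, against 15660 and 25070 CPM in Control, with 11 of 12 above 0 and 3 called higher. Of all genes, 1.54% were called in that comparison. None of the 12 was at 0 in any DP group. Among the 28 pairs of DP libraries, the order by Pdgfrb was that of the fibroblast sum in 23 and the order by Pdgfra in 19. The hair follicle stem cell list, at lower sums, matched in more pairs, 27 for Pdgfrb and 23 for Pdgfra, the highest numbers among the 9 marker lists for both. Its 12 genes, none at 0 in a group, summed to 401.1 and 362.2 CPM in ADX, against 672.8 and 1062 CPM in Sham, and to 1612 and 1174 CPM in GR KO, against 798.2 and 418.8 CPM in Control. Of the 11 tested, 9 lay below 0 in ADX, and in GR KO 7 lay above 0 with 1 called higher. The sum leans on Cd34, with a median of 274.9 CPM over the DP libraries, next to 58.41 CPM for Tcf7l1, the second highest. Whether this sum follows stem cells in DP was not tested. The part of the cell mixture in these receptor values was not tested, and in bulk samples fewer cells of a type and less RNA per cell cannot be told apart.

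**Figure D2:**
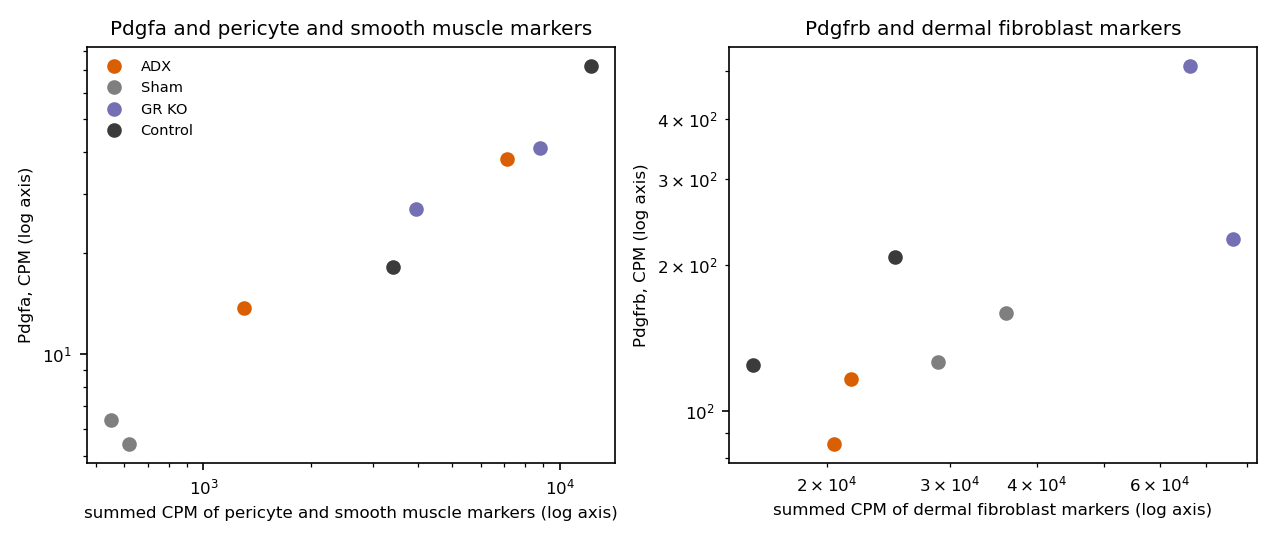
Pdgfa against the summed level of the pericyte and smooth muscle markers, and Pdgfrb against the summed level of the dermal fibroblast markers, in CPM on log axes, 1 point per dermal papilla library coloured by group. Pdgfa and the pericyte and smooth muscle sum order 27 of 28 library pairs alike, and Pdgfrb and the fibroblast sum 23 of 28, fewer than the 27 of Pdgfrb and the stem cell markers, which are not plotted.

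The effects of deletion and of adrenalectomy on the receptors had opposite signs in DP, and their difference was fitted directly. For Pdgfra the effect of GR deletion minus that of adrenalectomy was 1.25 on the log2 scale (SE 0.49, interval 0.15 to 2.35, edgeR adjusted p = 0.26). For Pdgfrb it was 1.65 (SE 0.58, interval 0.36 to 2.94, edgeR adjusted p = 0.207). Neither passed the threshold, at which 0.477% of all genes were called for this difference. The difference was -2.55 for Pdgfa (SE 0.92, edgeR adjusted p = 0.22), -2.26 for Pdgfc (SE 0.70, adjusted p = 0.156), 3.01 for Pdgfd (SE 1.18, adjusted p = 0.258) and 0.21 for Pdgfb (SE 1.82, adjusted p = 1). In all, 0 of 6 genes were called by edgeR, 5 had an unadjusted p under 0.05 (15.3% of all genes), and DESeq2 called 2, Pdgfa and Pdgfc (2.45% of all genes). Its adjusted p was 0.0428 for Pdgfa, in a range of 0.00143 to 0.67 over the alternatives, and 0.0216 for Pdgfc, in a range of 0.00129 to 0.512. Median-of-ratios scaling lowered the median difference of all genes by 0.17, and relative to that median the values were 1.14 and 1.16 for Pdgfra and 1.54 and 1.53 for Pdgfrb with TMM and median-of-ratios scaling. With protein-coding transcripts only the differences were smaller, 0.83 for Pdgfra and 1.28 for Pdgfrb. Their unadjusted edgeR p rose to 0.0972 and 0.0614, and the median of all genes was -0.04. The 2 experiments differed in strain, genotype and tamoxifen as well as in the treatment, which cannot be told apart in this difference.

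The DP files resolve transcripts, and a short Pdgfra transcript set the GR KO libraries apart. Pdgfra-201, the full-length coding transcript of 23 exons, held 81.3% to 97.6% of the estimated Pdgfra counts of a library. Pdgfra-207 is annotated as a non-stop decay transcript. It has 9 exons, shares its 8 splice junctions with Pdgfra-201, and runs on past the end of exon 9 into the intron for 79 bases. Its last 99 bases, at chr5:75175052-75175150 on the plus strand of GRCm38 and shown because they are what separates this transcript from the full-length one, are as follows, with the bases past exon 9 in capitals.
Pdgfra-207 end: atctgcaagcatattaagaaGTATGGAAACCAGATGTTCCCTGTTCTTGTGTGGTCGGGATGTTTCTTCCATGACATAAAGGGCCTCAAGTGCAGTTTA

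The estimated count of Pdgfra-207 was 1058 and 219 in GR KO DP libraries, against 7.14 and 4.58 in Control. It was 1.18 and 1.15 in ADX, against 0 and 2.67 in Sham. As a share of all Pdgfra counts these were 7.02% and 2.36% in GR KO and at most 0.109% in the other 6 libraries. In a fit over 60240 DP transcripts, added after these shares had been seen, the log2 fold change of Pdgfra-207 in GR KO against Control was 6.54 (SE 1.32, interval 3.39 to 9.69, edgeR adjusted p = 0.22), and that fit called 1 transcript in all, or 0.00166%. GR KO mice carry Pdgfra-CreER and Control mice do not, so the transgene, the deletion of GR and the libraries themselves cannot be told apart here. With protein-coding transcripts only, the log2 fold change of the Pdgfra gene was 0.46. That fit moved other genes as well. Pdgfrb was at 1.01 and the median of all genes at 0.04, against 1.15 and 0.17 with all transcripts. The value of 0.46 thus does not measure the removal of Pdgfra-207 alone. Pdgfra-208, a coding transcript of 16 exons, held 1.95% to 7.24% in every library.

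**Figure D3:**
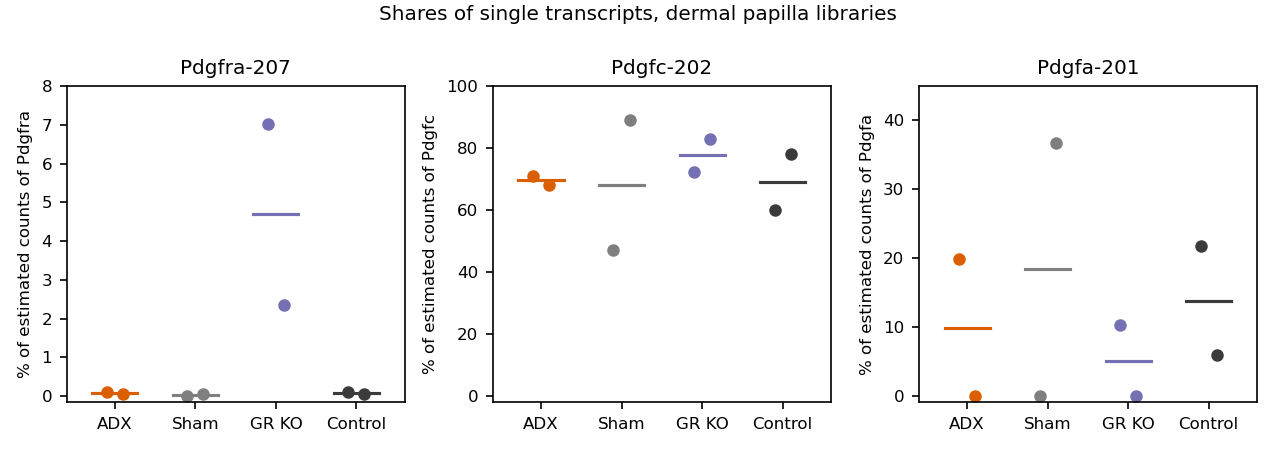
Share of a gene's estimated counts held by 1 transcript in each dermal papilla library, in percent, for Pdgfra-207, Pdgfc-202 and Pdgfa-201, with a bar at the mean of the 2 libraries of a group. Pdgfra-207 reaches 7.02% and 2.36% in GR KO and at most 0.109% elsewhere, and Pdgfc-202 holds 47.3% to 89.1% of Pdgfc in all groups.

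Among the ligands, Pdgfa encodes the A chain, which signals through PDGFRα alone. The gene lies on chromosome 5 at 138976014 to 138997370 on the minus strand. DP libraries from ADX mice had 38.2 and 13.7 CPM of Pdgfa, against 6.36 and 5.40 CPM in Sham. Both ADX libraries were higher, the first by far, a log2 fold change of 2.14 (SE 0.67, interval 0.64 to 3.64, edgeR adjusted p = 0.299). DESeq2 gave an adjusted p of 0.0309, within a range of 0.000569 to 0.699 over the alternatives, and the log2 fold change was 1.16 without the first ADX library. GR KO DP libraries had 41.2 and 27.0 CPM, against 72.1 and 18.2 CPM in Control. These groups overlapped (log2 fold change -0.41, SE 0.63, interval -1.82 to 1.0, edgeR adjusted p = 0.835), and the sign turned to 0.76 without the first Control library.

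Pdgfa in DP went with the contractile genes of pericytes and smooth muscle. The 12 genes of that list, such as Acta2, Tagln and Myh11, summed to 7099 and 1296 CPM in ADX, against 548.7 and 617.2 CPM in Sham, and to 8816 and 3964 CPM in GR KO, against 12230 and 3415 CPM in Control. None of the 12 was at 0 in a group. The order of the 8 libraries by Pdgfa was the order by this sum in 27 of 28 pairs, the highest number for Pdgfa among the 9 marker lists, where the other lists gave 9 to 17. The 2 genes most like Pdgfa over the 8 libraries, among 10271 compared, were Cald1 (r = 0.991) and Tpm1 (r = 0.989), caldesmon and a tropomyosin of contractile filaments. Depth and marker sums varied between these libraries, and their part in the r values was not tested. Nor was the part of smooth muscle or pericyte RNA in the Pdgfa values.

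A second feature of Pdgfa is the exon that encodes the basic retention motif of the long A chain, which holds the ligand to the cell surface and matrix. In Pdgfa-201 that exon, the sixth of 7, lies at chr5:138978622-138978690 on the minus strand of GRCm38 and is 69 bases long, a whole number of codons. It is shown because its inclusion decides which A chain is made, with the stop codon in capitals.
Pdgfa-201 exon: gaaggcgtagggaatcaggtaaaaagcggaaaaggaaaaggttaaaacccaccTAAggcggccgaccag

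Pdgfa-201 held 19.9% and 0% of the estimated Pdgfa counts in ADX DP, against 0% and 36.8% in Sham. It held 10.3% and 0% in GR KO, against 21.7% and 5.95% in Control. Libraries of 1 group thus differed as much as groups did, at 67 to 915 counts for the whole gene, and no order of the groups could be read. Pdgfa-204 held up to 81.2% and Pdgfa-202 between 10.4% and 63.2%. The other Pdgfa transcripts were not examined for the printed exon, so shares of Pdgfa-201 alone do not measure its inclusion. Reads of the antisense gene 6330403L08Rik, at 18 to 69 counts per DP library, overlap Pdgfa and could not be told apart from it by strand.

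Pdgfc, on chromosome 3 at 81036416 to 81214040 on the plus strand, encodes a chain that binds PDGFRα once its CUB domain is removed. It had 32.5 and 48.6 CPM in ADX DP, against 28.8 and 12.4 CPM in Sham. The first ADX library lay just above the first Sham library, and the log2 fold change was 0.98 (SE 0.49, interval -0.12 to 2.08, edgeR adjusted p = 0.482) and 0.45 without the second Sham library. In GR KO DP, Pdgfc was at 46.0 and 20.1 CPM, against 67.1 and 93.4 CPM in Control. Both GR KO libraries lay below both Control libraries (log2 fold change -1.28, SE 0.49, interval -2.38 to -0.18, edgeR adjusted p = 0.247), with -0.79 without the second GR KO library and -1.99 without the first.

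Most Pdgfc reads in DP were assigned to a transcript that is not annotated to make the ligand. Pdgfc-202, of 7 exons and annotated as a target of nonsense-mediated decay, held 47.3% to 89.1% of the estimated counts, and the coding Pdgfc-201 of 6 exons held 4.62% to 50.0%. Pdgfc-202 has an additional second exon at chr3:81131018-81131076 on the plus strand of GRCm38, 59 bases and so 2 beyond a whole number of codons. The 2 transcripts also differ elsewhere, with 2818 bases in Pdgfc-202 and 3521 bases in Pdgfc-201. Their shares therefore do not measure inclusion of this exon alone. The exon is printed here with the annotated stop codon in capitals, since Pdgfc-201 lacks it.
Pdgfc-202 extra exon: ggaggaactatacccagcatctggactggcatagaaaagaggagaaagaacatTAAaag

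At the level of transcripts, Pdgfc-202 had a log2 fold change of 1.19 in ADX against Sham (SE 0.49, edgeR adjusted p = 0.575) and -1.28 in GR KO against Control (SE 0.49, edgeR adjusted p = 0.515), close to the values of the whole gene. Pdgfc-201 had 0.37 (SE 1.35, adjusted p = 1) and -1.70 (SE 1.38, adjusted p = 0.845) in the same comparisons. The effect of deletion minus that of adrenalectomy was -2.47 for Pdgfc-202 (SE 0.70, edgeR adjusted p = 0.308). Shares and counts of transcripts are the authors' estimates, and their own error is not in these standard errors.

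Pdgfd, on chromosome 9 at 6168584 to 6378850 on the plus strand, encodes the second CUB-domain ligand, which binds PDGFRβ. It was low in 3 of the 4 DP groups and higher in GR KO. GR KO libraries had 53.2 and 21.6 CPM, against 11.2 and 2.32 CPM in Control. Both GR KO libraries lay above both Control libraries, with a log2 fold change of 2.46 (SE 0.85, interval 0.57 to 4.35, edgeR adjusted p = 0.195). DESeq2 gave 0.0314, in a range of 0.00941 to 0.847, and without the second Control library the log2 fold change was 1.57. ADX libraries had 3.34 and 5.39 CPM, against 2.96 and 9.82 CPM in Sham, which overlapped (log2 fold change -0.55, SE 0.83, edgeR adjusted p = 0.827), and the sign turned to 0.51 without the second Sham library. Over the 8 DP libraries Pdgfd and Pdgfrb, ligand and receptor, had r = 0.89 in log2 CPM, against 0.78 between Pdgfra and Pdgfrb. The order of the libraries by Pdgfd was that of the fibroblast sum in 22 of 28 pairs and that of the stem cell marker sum in 22 as well.

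Pdgfb, on chromosome 15 at 79995874 to 80014977 on the minus strand, encodes the chain that binds both receptors and is best known from endothelium and platelets. Its median per length was the lowest of the family in DP, in no fixed order with Pdgfd. It had 7.92 and 0.234 CPM in ADX, against 5.84 and 4.83 CPM in Sham, and 11.2 and 1.35 CPM in GR KO, against 10.3 and 4.0 CPM in Control. The second ADX library held only 2 Pdgfb counts. The fold changes had wide errors (log2 -0.39, SE 1.30, edgeR adjusted p = 0.931 for ADX; log2 -0.18, SE 1.28, adjusted p = 1 for GR KO). Leaving out 1 library gave log2 values for ADX between -4.51 and 0.62. Endothelial markers summed to 73.7 to 96.44 CPM in ADX, 74.4 to 99.69 CPM in Sham, 40.59 to 159.9 CPM in GR KO and 51.97 to 142.3 CPM in Control, and their order matched that of Pdgfb in 24 of 28 pairs.

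**Figure D4:**
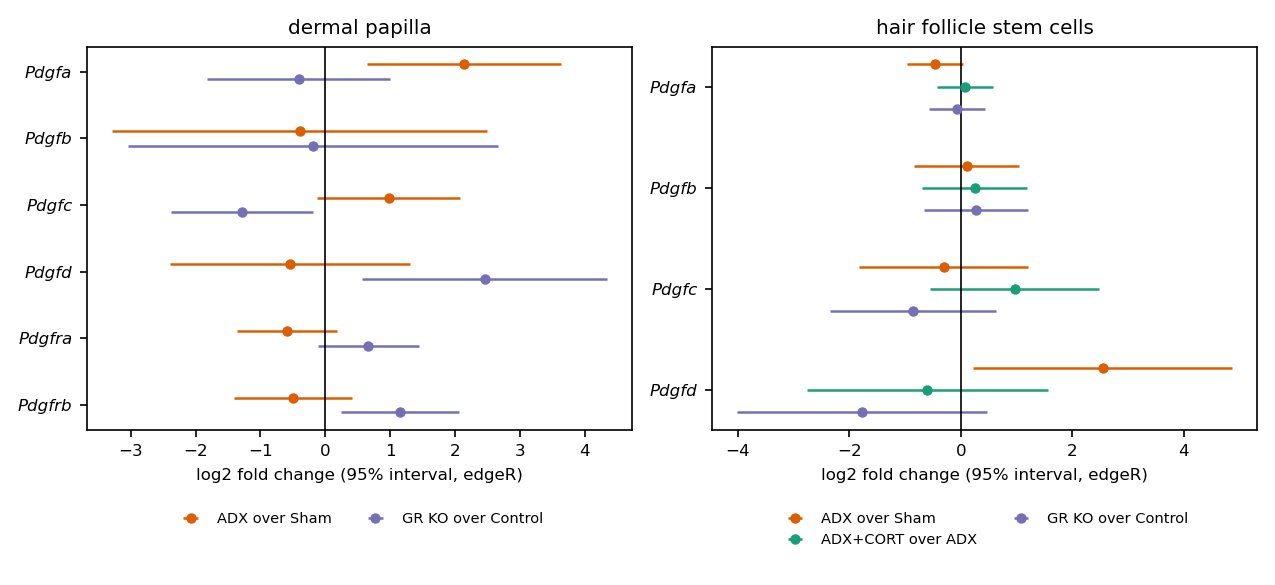
Log2 fold changes of all 6 PDGF genes in dermal papilla cells and of the 4 ligand genes in hair follicle stem cells, as edgeR estimates (points) with 95% intervals (lines) and a vertical line at 0. The widest intervals in dermal papilla cells belong to Pdgfb, and those of Pdgfa in stem cells are the narrowest there.

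In HFSC the question was whether the ligand that the epithelium sends to the dermis, Pdgfa, followed corticosterone. It had 212 and 223 CPM in ADX+CORT and 199 and 214 CPM in ADX, against 308 and 262 CPM in Sham. Both ADX+CORT and both ADX libraries were lower than both Sham libraries. The log2 fold change was -0.47 in ADX against Sham (SE 0.23, interval -0.97 to 0.04, edgeR adjusted p = 0.363) and -0.39 in ADX+CORT against Sham (SE 0.23, interval -0.89 to 0.11, edgeR adjusted p = 0.847). Between ADX+CORT and ADX it was 0.08 (SE 0.23, interval -0.42 to 0.58, edgeR adjusted p = 0.904). GR KO HFSC had 152 and 233 CPM, against 195 and 207.7 CPM in Control, and the Control libraries fell between those of GR KO (log2 fold change -0.07, SE 0.23, interval -0.57 to 0.43, edgeR adjusted p = 0.96). The level of Pdgfa thus stayed within 152 to 308 CPM over all 10 libraries. In ADX against Sham HFSC the glucocorticoid targets Tsc22d3, Per1 and Fkbp5 had log2 fold changes of -0.98, -0.92 and -0.16. In ADX+CORT against ADX they had 0.11, 0.50 and -0.52, with overlapping groups for each. None of these target genes was called in either comparison. Stem cell markers summed to 45700 and 47400 CPM in ADX+CORT and 24120 and 35750 CPM in ADX, against 47660 and 51960 CPM in Sham. In ADX against Sham 11 of 12 lay below 0, with none called, and none was at 0 in any group. They summed to 25030 and 37470 CPM in GR KO, against 50430 and 57980 CPM in Control. The stem cell sum was thus near the Sham level in ADX+CORT, where Pdgfa was near the ADX level, and lower in GR KO than in Control, where Pdgfa overlapped.

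The edgeR fit called 0 of 6 genes in ADX against Sham HFSC, where 0.295% of all genes were called, and 0 of 6 in GR KO against Control, with 0.985%. In ADX+CORT against ADX and against Sham it called 0 of 6, with 0% of all genes called in both. An unadjusted p under 0.05 was found for 2 of the 6 in ADX against Sham (15.2% of all genes), 0 in GR KO (13.1%), 1 in ADX+CORT against ADX (19.3%) and 0 in ADX+CORT against Sham (6.09%). DESeq2 called Pdgfra in ADX against Sham, with 4.29% of all genes, and none of the 6 in the others, where it called 3.65% (GR KO), 6.72% (ADX+CORT against ADX) and 0.301% (ADX+CORT against Sham). Groups did not overlap for 3 of 6 genes in ADX against Sham, for 1 in GR KO against Control, for 2 in ADX+CORT against ADX and for 4 in ADX+CORT against Sham, beside 49.4%, 38.5%, 52.6% and 40.7% of all genes. The 3 comparisons among ADX, ADX+CORT and Sham share libraries and are not independent.

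**Figure D5:**
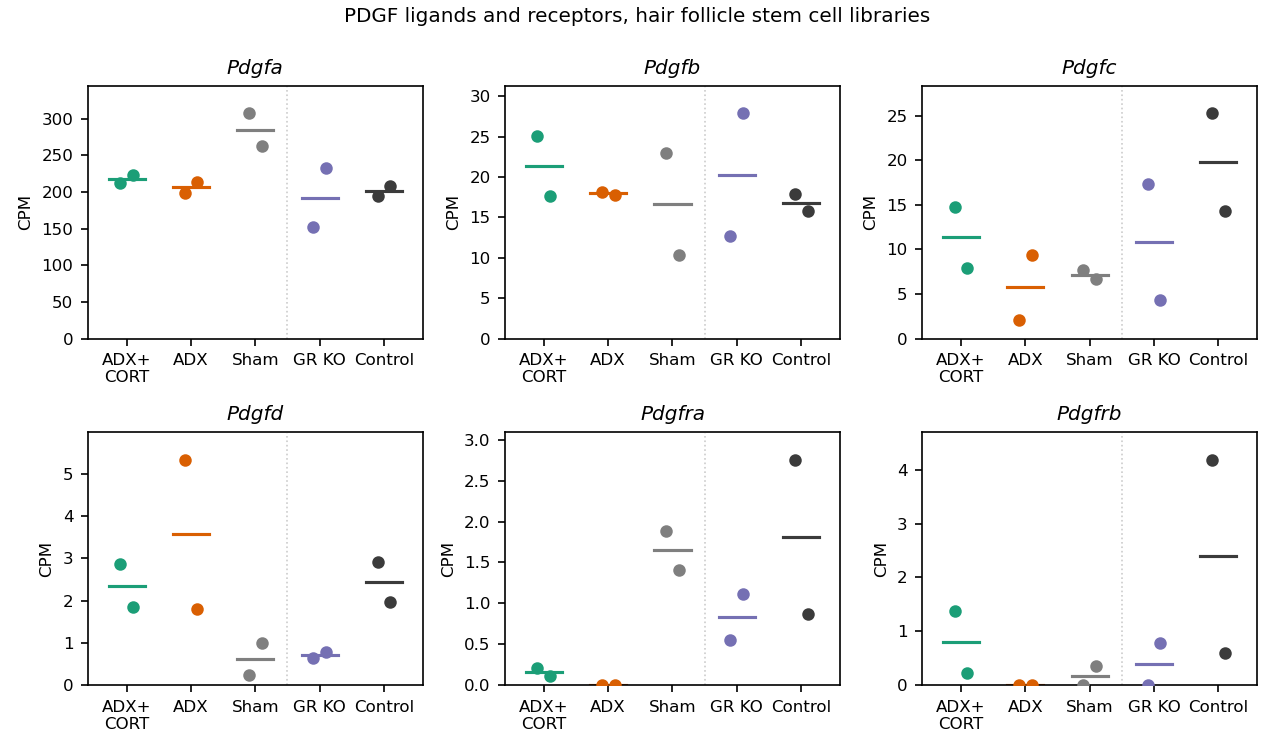
Levels of the 6 PDGF genes in hair follicle stem cells in CPM on linear axes from 0, 1 point per library and a bar at the mean of the 2 libraries of a group. Pdgfa lies between 152 and 308 CPM in all 10 libraries, and both receptors stay under 5 CPM, at 0 in both ADX libraries.

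The receptors were near absent from HFSC libraries. Pdgfra had 4 and 2 counts in ADX+CORT and 0 and 0 counts in ADX, against 32 and 20 counts in Sham. With 0 set to a floor of 3 counts over the group, ADX was at least 17.4-fold lower than Sham, and ADX+CORT was at least 1.68-fold higher than ADX. The edgeR adjusted p was 0.118 for ADX against Sham, and DESeq2 gave 0.00949, in a range of 0.00949 to 0.523 over the alternatives. Against Sham the log2 fold change of ADX+CORT was -3.31 (SE 1.53, edgeR adjusted p = 0.806). GR KO had 12 and 20 Pdgfra counts, against 54 and 26 in Control (log2 fold change -1.12, SE 1.38, edgeR adjusted p = 0.827). In CPM these groups overlapped, at 0.546 and 1.115 in GR KO, against 2.759 and 0.866 in Control. Dermal fibroblast markers ran the other way after adrenalectomy, summing to 310.3 and 353.6 CPM in ADX, against 129.4 and 216 CPM in Sham, with 9 of 12 above 0. The dermal papilla list, in which Sox2 and Fgf10 were at 0 in both groups, summed to 151.5 and 171.7 CPM in ADX, against 180.4 and 206.4 CPM in Sham. In GR KO HFSC both lists were lower than in Control, where Pdgfra overlapped. The dermal papilla list, with Alpl and Fgf10 at 0 in both GR KO libraries and Corin at 0 in both Control libraries, summed to 199.6 and 231.2 CPM in GR KO, against 372.3 and 400.7 CPM in Control, with 10 of 12 tested below 0 and 1 called lower. The fibroblast list, with Dpt at 0 in both GR KO libraries, summed to 98.43 and 113 CPM in GR KO, against 189.2 and 149.7 CPM in Control, with 10 of 12 below 0. The part of these cells in the Pdgfra counts was not tested.

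Pdgfrb had 26 and 4 counts in ADX+CORT HFSC and 0 and 0 in ADX, against 0 and 5 in Sham. ADX+CORT was thus at least 8.40-fold higher than ADX over the same floor (edgeR adjusted p = 0.248), most of it from 1 library. GR KO had 0 and 14 counts, against 82 and 18 in Control (log2 fold change -2.61, SE 2.12, edgeR adjusted p = 0.684), where the first Control library held most of the counts. In CPM these groups overlapped, at 0 and 0.780 in GR KO, against 4.19 and 0.599 in Control. At these counts a difference of either receptor was not detectable in most comparisons.

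Pdgfb and Pdgfc were minor ligands in HFSC, with a wide spread between libraries of 1 group. Pdgfb had 25.1 and 17.7 CPM in ADX+CORT and 18.1 and 17.8 CPM in ADX, against 23.0 and 10.3 CPM in Sham. In GR KO it had 12.7 and 27.9 CPM, against 17.9 and 15.8 CPM in Control. Every pair of groups overlapped, and the 4 fitted log2 fold changes, from 0.11 to 0.36, had standard errors of 0.43 to 0.44. Pdgfc had 14.8 and 7.93 CPM in ADX+CORT and 2.11 and 9.42 CPM in ADX, against 7.64 and 6.71 CPM in Sham. Its log2 fold change was -0.31 in ADX against Sham (SE 0.70, edgeR adjusted p = 0.895) and 0.97 in ADX+CORT against ADX (SE 0.70, adjusted p = 0.489). Both ADX+CORT libraries lay above both Sham libraries (log2 fold change 0.66, SE 0.70, edgeR adjusted p = 0.951). In GR KO it was at 17.4 and 4.35 CPM, against 25.3 and 14.3 CPM in Control (log2 fold change -0.86, SE 0.69, edgeR adjusted p = 0.679).

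For Pdgfd the HFSC groups did not overlap in 3 of the 4 comparisons. Of all genes, 49.4% did not overlap in ADX against Sham, 40.7% in ADX+CORT against Sham and 38.5% in GR KO against Control. The comparisons with Sham share its 2 libraries. Pdgfd had 2.86 and 1.85 CPM in ADX+CORT and 5.34 and 1.81 CPM in ADX, against 0.235 and 0.989 CPM in Sham. All 4 adrenalectomised libraries were above both Sham libraries (log2 fold change 2.55 for ADX, SE 1.08, interval 0.22 to 4.87, edgeR adjusted p = 0.279; 1.95 for ADX+CORT, SE 1.06, adjusted p = 0.838). In GR KO it had 0.637 and 0.780 CPM, against 2.91 and 1.96 CPM in Control (log2 fold change -1.77, SE 1.04, interval -4.02 to 0.47, edgeR adjusted p = 0.514). The effect of deletion minus that of adrenalectomy was -4.32 (SE 1.49, interval -7.55 to -1.09, edgeR adjusted p = 0.379). These values rest on 4 to 76 counts per library. Endothelial markers summed to 41.6 and 30.46 CPM in ADX+CORT and 39.24 and 17.9 CPM in ADX, against 9.692 and 12.92 CPM in Sham, and to 29.31 and 38.9 CPM in GR KO, against 72.96 and 55 CPM in Control, with none of the 9 at 0 in a group. Their difference of effects lay below 0 for 9 of 9, with none called. The order of the 10 libraries by Pdgfd was that of the endothelial sum in 36 of 45 pairs and that of the fibroblast sum in 33, and the part of these cells in the Pdgfd values was not tested. For this difference edgeR called 0 of 6 genes and 0% of all genes, 2 of the 6 had an unadjusted p under 0.05 (10.6% of all genes), and DESeq2 called 0 (0.55% of all genes).

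Genes around the pathway were called in a few places only. Of all genes, edgeR called 1.54% in GR KO DP, 0.477% for the difference of effects in DP and 0.295% in ADX HFSC. Of the 6 genes of binding proteins and co-receptors, 2 rose in GR KO DP and none fell. Their median log2 fold change was 1.5, against 0.17 for all genes. Nrp1, a co-receptor that binds PDGFs and VEGFs, had 196 and 185 CPM in GR KO, against 46.1 and 23.2 CPM in Control (log2 fold change 2.46, SE 0.45, edgeR adjusted p = 0.0373). Its call was lost without the second Control library (adjusted p = 0.348), the first GR KO library (0.0598) or the second GR KO library (0.0539). Sparc, a matrix protein that binds PDGF-B, had 9967 and 12720 CPM in GR KO, against 3829 and 2153 CPM in Control (log2 fold change 1.92, SE 0.40, edgeR adjusted p = 0.0485), and its call was lost under each left-out library, with adjusted p from 0.0562 to 0.458. In ADX DP the same 6 genes had a median of -0.43, against 0.08 for all genes, with none called. Sparc is also a product of fibroblasts, whose markers were higher in GR KO as given above, and their part in these calls was not tested.

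The 7 proteases that activate PDGFs, furin-like convertases and plasminogen activators among them, had log2 fold changes above 0 for 7 of 7 in GR KO DP, with a median of 0.79, and below 0 for 5 of 7 in ADX DP, with a median of -1.45. The medians of all genes were 0.17 in GR KO DP and 0.08 in ADX DP. None of the 7 proteases was called in either comparison or in HFSC. Of the 22 signalling proteins that PDGF receptors recruit, 1 fell in GR KO DP and none rose, and the median of 0.03 lay below the 0.17 of all genes. It was the kinase Src, with 21.9 and 17.8 CPM in GR KO, against 64.2 and 65.4 CPM in Control (log2 fold change -1.70, SE 0.34, edgeR adjusted p = 0.046). Each left-out library ended this call, with adjusted p from 0.101 to 0.211. In ADX DP 20 of the 22 were below 0, with a median of -0.42, against 0.08 for all genes, and none called. Below 0 there were also 10 of the 12 feedback inhibitors and 13 of the 15 immediate early genes described next. Of the 12 pericyte and smooth muscle markers, 9 lay above 0.

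Of the 12 feedback inhibitors of receptor kinases, 1 fell in GR KO DP and none rose. Errfi1, which encodes an inhibitor of the EGF receptor, had 352 and 149 CPM in GR KO, against 989 and 1687 CPM in Control (log2 fold change -2.42, SE 0.49, edgeR adjusted p = 0.0465), and the call was lost without the second Control library (0.22) or the second GR KO library (0.138). In ADX DP it had 146 and 172 CPM, against 1014 and 494 CPM in Sham, with a log2 fold change of -2.25 that missed the threshold (SE 0.49, edgeR adjusted p = 0.19). The sprouty, spred and Cbl genes of the list were not called in any comparison.

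Growth factor response genes were called in GR KO DP, in ADX HFSC and in the difference of effects in DP. Of these 15 immediate early genes, 2 rose and none fell in GR KO DP, with a median of 0.54. The chemokine gene Ccl2 had 239 and 105 CPM in GR KO, against 23.5 and 15.1 CPM in Control (log2 fold change 3.16, SE 0.58, edgeR adjusted p = 0.0373), and the call was lost without the first Control library (0.0744), the second Control library (0.301) or the first GR KO library (0.0898). Ptgs2, the inducible cyclooxygenase, had 290 and 72 counts in GR KO, against 6 and 2 counts in Control (log2 fold change 5.41, SE 1.10, edgeR adjusted p = 0.0475), and lost its call without either Control library (0.162 and 0.419) and without the first GR KO library (0.259). In ADX DP, Ptgs2 had 6 and 2 counts, against 59 and 48 counts in Sham, and the difference between the effects was 8.48 (SE 1.5, edgeR adjusted p = 0.0463). That call was lost without either Sham library (0.0581 and 0.0898), the second ADX library (0.109), either Control library (0.087 and 0.219) or the first GR KO library (0.108), with median-of-ratios scaling (0.055) and with protein-coding transcripts only (0.063). All 15 genes had a difference above 0, with a median of 1.21, against 0.11 for all genes, and 1 of them was called. Immune markers summed to 2628 and 39.87 CPM in the 2 GR KO libraries and to 164.4 and 313.8 CPM in Control, and their part in Ccl2 and Ptgs2 was not tested.

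In ADX HFSC, 1 of the 15 immediate early genes rose and none fell. It was Hbegf, the heparin-binding EGF-like growth factor, with 30.5 and 33.5 CPM in ADX+CORT and 83.5 and 54.8 CPM in ADX, against 14.7 and 17.6 CPM in Sham (ADX against Sham log2 fold change 2.10, SE 0.30, edgeR adjusted p = 0.0231). Corticosterone, as ADX+CORT against ADX, gave a log2 fold change of -1.11 that missed the threshold (SE 0.29, edgeR adjusted p = 0.0733). The ADX call was lost without the first Sham library (0.205), the second Sham library (0.102) or the first ADX library (0.124). A last list held VEGF family ligands and their receptors, and the other class III receptors with their ligands. Of its 15 genes, 15 were tested in DP and 13 in HFSC, and none was called in any comparison.

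The 6 GR KO calls in DP depended on the settings as well. With median-of-ratios scaling Sparc (adjusted p = 0.0589) and Ptgs2 (0.05) were not called. With protein-coding transcripts only Nrp1 (0.0512), Ptgs2 (0.0647) and Sparc (0.0719) were not called. When ADX and Sham stayed out of the fit, Ccl2 (0.0652), Nrp1 (0.0682), Ptgs2 (0.0726), Errfi1 (0.075) and Sparc (0.103) were not called, and Src was.

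Expression patterns most like those of the 6 genes were looked up over all libraries of a cell type, as Pearson's r of log2 CPM over 8 DP libraries or 10 HFSC libraries. Depth and marker sums varied between the libraries of a cell type, and their part in r was not tested. In DP, Pdgfra was most like Fbxo38 (r = 0.979), Pdgfrb most like Il6st (0.983) and Tgm2 (0.979), Pdgfd most like Clip1 (0.969) and Sfrp4 (0.966), Pdgfc most like Col6a6 (0.961) and Pdgfb most like Mafk (0.951). Il6st is the shared receptor chain of interleukin 6 family cytokines, Tgm2 a transglutaminase, Sfrp4 a secreted Wnt antagonist and Col6a6 a collagen VI chain. In HFSC the nearest genes were Ifitm10 for Pdgfa (0.912), Synpo for Pdgfb (0.942), Mov10 for Pdgfc (0.927), Fabp4 for Pdgfd (0.912), Ptpn6 for Pdgfra (0.919) and Ciz1 for Pdgfrb (0.947). With median-of-ratios scaling another gene came first for Pdgfa and Pdgfd in DP and for Pdgfra in HFSC.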

How the data were processed

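RNA was prepared with RNeasy Micro, cDNA with the SMART-Seq v4 kit and sequencing libraries with Nextera XT, a chemistry without strand marks, per the labels' protocols. The DP values deposited by the authors are estimated counts of transcripts. Salmon and mm10 are named for them in the submitters' processing notes. For HFSC the authors deposited whole read counts per gene, made with featureCounts 1.6.1 over exons without a strand setting, per the file headers. The notes also name Trim Galore 0.4.1, STAR 2.5.3 and DESeq2 1.22.2.

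DP transcripts (134967, of which 150 had no match and held at most 0.0752% of a library) were summed to genes through GENCODE M21 of GRCm38 and rounded. Dates in place of 27 gene names in 2 HFSC files were restored from coordinates. Each cell type was fitted once over all its libraries in edgeR 4.0.16 (R 4.3.3), with TMM factors, filterByExpr and quasi-likelihood tests, Benjamini-Hochberg adjustment over every gene tested and a threshold of 0.05. Transcript lengths of DP and printed sequences came from the same annotation and its transcripts. Exon lengths of HFSC genes were those deposited with the counts. Library replicates correlated at 0.881 to 0.962 in DP and 0.936 to 0.953 in HFSC. Steps were tested on simulated data.

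Members, 6 pathway lists and 9 marker lists were chosen with earlier results of these data known. The text names all 6 members, Nr3c1 and 3 glucocorticoid target genes, up to 4 called genes per pathway list by p-value, and the genes most like each member. As alternatives, DESeq2 1.42.0, no filter, median-of-ratios scaling, only the groups compared, protein-coding transcripts only in DP, the replicate number as a block, another transcript length, and each library left out were run. The transcript test was added after the data were seen. Floors cover counting error only, because reads lack molecular identifiers.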

Additional observations from a re-analysis of the deposited data

Results flagged for a closer look

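The 5 values here concern genes whose 2 effects had opposite signs or differed by test, each as the effect of GR deletion minus that of adrenalectomy on the log2 scale. In DP, every ADX library had more Pdgfc than every Sham library and every GR KO library had less than every Control library, a difference of -2.26 (edgeR adjusted p = 0.156). Pdgfra and Pdgfrb ran the other way in every DP library, lower in ADX than in Sham and higher in GR KO than in Control, with differences of 1.25 (edgeR adjusted p = 0.26) and 1.65 (edgeR adjusted p = 0.207). In HFSC, Pdgfd was higher in both ADX libraries than in both Sham libraries and lower in both GR KO libraries than in both Control libraries, a difference of -4.32 (edgeR adjusted p = 0.379). Groups separated in this way for 43.3% (ADX) and 51.6% (GR KO) of all genes in DP and for 49.4% and 38.5% in HFSC. The share separated in both comparisons with opposite signs was not computed. Ptgs2 in DP was the one gene among the 5 whose difference passed the test, at 8.48 (edgeR adjusted p = 0.0463). Strain, genotype and tamoxifen also differ between the 2 experiments and cannot be told apart from these differences.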

How the results depend on the processing

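The count of PDGF genes called stayed at 0 of 6 in all 8 tests with median-of-ratios scaling and under each left-out library, and in the 3 DP tests with protein-coding transcripts only. Fits of only the groups compared called none of the members that passed their filter. It became 1 with DESeq2 in ADX DP, GR KO DP and ADX HFSC and 2 for the difference in DP. Without a filter it became 1 in ADX DP (Pdgfa), 3 in GR KO DP (Pdgfc, Pdgfd and Pdgfrb), 1 in ADX HFSC (Pdgfra) and 4 for the difference in DP. The deviation of the first library from its group mean, in log2 CPM over all genes tested, was compared between the 2 groups of a comparison. These deviations correlated at -0.148 (ADX and Sham) and 0.22 (GR KO and Control) in DP and at -0.02 to 0.041 in HFSC. The second library of a group deviates by the reverse of the first, so each comparison gives 1 value. Whether the numbers pair the libraries is not given by the labels and cannot be settled from 2 pairs, and 0 of 6 genes were called under the replicate block in all 8 tests. Fits of only the groups compared left Pdgfra or Pdgfrb out of some HFSC comparisons through the filter.

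Whole tables moved more. ADX DP had 4 genes called, 467 with DESeq2, 894 without a filter, 10 with the replicate block, 8 with coding transcripts and 0 in its own groups. GR KO DP had 361, then 1373, 1456, 470, 260 and 142, and its split of 180 higher and 181 lower became 134 and 247 under median-of-ratios scaling. The difference in DP had 112, then 1055, 1305, 196 and 34, and its split of 82 and 30 became 46 and 45. ADX HFSC had 45, 841 with DESeq2, 888 without a filter and 9 with the replicate block, ADX+CORT against ADX had 0, 1318 and 1309, ADX+CORT against Sham 0, 59 and 184, GR KO HFSC 150, 717 and 840, and the difference in HFSC 0, 108 and 256.

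Signs that turned belong to low or overlapping genes. Log2 fold changes over the left-out libraries ranged from -4.51 to 0.62 (Pdgfb, ADX DP), -1.20 to 0.51 (Pdgfd, ADX DP), -1.26 to 0.76 (Pdgfa, GR KO DP), -2.40 to 0.65 (Pdgfb, GR KO DP) and -1.92 to 4.31 (Pdgfb, difference in DP). In HFSC they ranged from -0.36 to 0.80 (Pdgfb) and -1.75 to 0.39 (Pdgfc) in ADX, -0.0245 to 0.45 (Pdgfb) and -1.19 to 0.38 (Pdgfd) in ADX+CORT against ADX, -0.10 to 1.05 (Pdgfb) in ADX+CORT against Sham, -0.41 to 0.21 (Pdgfa) and -0.41 to 0.73 (Pdgfb) in GR KO, and -0.53 to 0.63 (Pdgfb), -1.87 to 0.89 (Pdgfc) and -3.74 to 4.13 (Pdgfrb) for the difference. Pdgfb also turned with coding transcripts in ADX DP (0.28) and in the DP difference (-0.61), and there with median-of-ratios scaling (-0.007). The cause was not tested. Counts of 0 to 82 per library limit both receptors in HFSC.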
